A study of Rattus norvegicus with 8 samples.

Results

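Circadian clock genes encode transcriptional regulators of the cell's daily timekeeping loop and its output. Of these, 10 were followed here in rat kidney allografts: Per1, Per2, Per3, Cry1, Arntl (also called Bmal1), Clock, Nr1d1, Nr1d2, Dbp and Tef. They were found on the array by gene symbol or RefSeq accession, which gave 12 probes for 10 genes, and all 10 were among the 24462 genes tested. Arrays were made from 8 grafts, 2 per group, and all grafts were kidneys of male Dark Agouti (DA) donors placed in male Lewis recipients of another MHC type whose own kidneys had both been removed. Rats weighed 120 to 250 g, grafts spent 25 min at 4 °C in University of Wisconsin solution, and tissue was taken 24 h after transplantation.

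Donors were 20 to 50% lighter than their recipients for the high-difference grafts and 0 to 20% lighter for the low-difference grafts, and neither set was treated. The anti-IL6R group were high-difference grafts whose recipients got 500 µg of a neutralizing antibody to the interleukin-6 receptor intravenously right after surgery. The prednisolone group were high-difference grafts whose recipients got 15 mg/kg of this glucocorticoid by the same route at the same time. No group of unoperated kidneys was analysed here, and the sources used here do not give the hour of day of collection. Whether the 8 grafts stood at the same circadian time is therefore not known.

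In the core of the clock, the proteins CLOCK and BMAL1 (the product of Arntl) pair up, bind E-boxes in promoters and switch on the Per, Cry, Nr1d1, Nr1d2, Dbp and Tef genes. PER and CRY proteins return to block that pair, while the NR1D1 and NR1D2 proteins (REV-ERB alpha and beta) repress Arntl through a separate element, so that Arntl and genes such as Dbp run in opposite phase through the day. Dbp and Tef encode PAR bZIP factors that bind D-boxes and carry the rhythm to output genes. The kidney is a strongly rhythmic organ, in which the clock governs sodium and water transport genes, and glucocorticoids are a known resetting signal for clocks outside the brain.

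The promoters of Per2, Arntl, Nr1d2 and Tef are shown because these members held letters of a clock element in the window searched. Per2, Arntl and Tef also had wide gaps between untreated groups (log2 difference, high minus low, -1.15, 1.28 and -1.13), and Nr1d2 a smaller one (-0.61). Nr1d1 held such letters too, but differed by -0.20 and is not printed. Each runs 5′ to 3′ on the gene's own strand over the 250 bases before and 50 bases from the annotated start, from RefSeq on the GRCr8 build. Per2 lies at chr9:99496944-99497243 on the minus strand, Arntl at chr1:176766078-176766377, Nr1d2 at chr15:9954784-9955083 and Tef at chr7:115206577-115206876, these 3 on the plus strand. Capitals mark a D-box (TTATGTAA) and an E-box variant (CACGTT) in Per2, and an E-box (CACGTG) in Tef. In Arntl and Nr1d2 they mark AGGTCA, the core letters of the element shared by ROR and REV-ERB receptors. Bases flanking that core were not searched, so AGGTCA alone does not mark a full receptor element.
Per2: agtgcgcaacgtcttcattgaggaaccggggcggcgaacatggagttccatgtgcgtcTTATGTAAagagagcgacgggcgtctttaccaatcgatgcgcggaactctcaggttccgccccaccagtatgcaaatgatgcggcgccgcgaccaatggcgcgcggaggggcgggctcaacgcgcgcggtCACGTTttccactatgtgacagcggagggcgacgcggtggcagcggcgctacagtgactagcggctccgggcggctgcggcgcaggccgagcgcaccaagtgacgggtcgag
Arntl: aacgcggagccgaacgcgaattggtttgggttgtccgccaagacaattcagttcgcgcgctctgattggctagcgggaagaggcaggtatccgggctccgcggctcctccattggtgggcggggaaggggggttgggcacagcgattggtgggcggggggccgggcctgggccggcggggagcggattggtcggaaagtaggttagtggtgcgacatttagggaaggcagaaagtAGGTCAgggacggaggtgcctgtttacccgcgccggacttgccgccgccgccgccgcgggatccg
Nr1d2: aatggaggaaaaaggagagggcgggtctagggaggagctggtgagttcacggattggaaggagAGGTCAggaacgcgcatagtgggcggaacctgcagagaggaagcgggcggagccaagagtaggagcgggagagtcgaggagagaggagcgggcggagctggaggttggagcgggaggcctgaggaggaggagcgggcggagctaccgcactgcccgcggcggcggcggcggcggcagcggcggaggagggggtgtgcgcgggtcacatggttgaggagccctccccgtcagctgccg
Tef: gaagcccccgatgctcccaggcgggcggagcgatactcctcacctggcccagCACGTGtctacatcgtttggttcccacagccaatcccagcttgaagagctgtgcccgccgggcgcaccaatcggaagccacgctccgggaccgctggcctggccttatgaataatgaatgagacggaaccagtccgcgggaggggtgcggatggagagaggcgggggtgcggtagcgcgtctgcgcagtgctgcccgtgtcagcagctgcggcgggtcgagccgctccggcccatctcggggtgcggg
Counted from the annotated start, the Per2 D-box lay at -192 to -185 and its E-box variant at -62 to -57. AGGTCA lay at -15 to -10 in Arntl and at -187 to -182 in Nr1d2, and the Tef E-box at -198 to -193. Windows were matched for 9 of the 10 members, giving 11 windows, with none matched for Cry1. CACGTG stood in 2 of the 11 windows and in 6.42% of all 33469 windows of this length, CACGTT in 2 and 4.83%, AGGTCA in 2 and 16.2%, and TTATGTAA in 1 and 0.893%. Nr1d1 supplied the other CACGTG window and the other CACGTT window. No member window held the second D-box form TTACGTAA (0.12% of all windows), the cAMP element TGACGTCA (1.83%) or the consensus glucocorticoid response element (0.439%). Both strands were searched, no 2 of these motifs overlapped in the windows printed, and a match is a stretch of letters, not a measured binding site.

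Signals are given as log2 levels with the 75th percentile of each array set to 0, so a level of 1 is a signal at double that percentile. A level belongs to its probe, and levels of different genes are not compared. Both untreated groups shared a slide and a scan, and both treated groups shared another, so in each comparison of treated with untreated grafts the treatment and the slide cannot be told apart. Between 64.5% and 74.0% of gene spots on an array were well above background, lowest on the untreated high-difference arrays and the second prednisolone array. All 9 nephron markers checked (such as Umod, Lrp2 and Aqp2) were well above background on all 8 arrays. Clock was well above background on 7 of 8 arrays, missing on 1 high-difference array, and the other 9 members were on all 8. Per3 had a second probe above background on 4 arrays and another above background on none, and the brightest probe stands for it.

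Most of the array-to-array variation among the members lay in 5 genes. Over the 8 arrays the standard deviation (SD) of the level was 0.74 for Arntl, 0.69 for Dbp, 0.65 for Per3, 0.54 for Tef and 0.53 for Per2. It was 0.34 for Nr1d1, 0.29 for Nr1d2, 0.26 for Cry1, 0.25 for Per1 and 0.22 for Clock. Arntl varied more than 88.0% of all genes tested and Clock more than 24.4%, so the members span steady and variable genes.

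**Figure D1:**
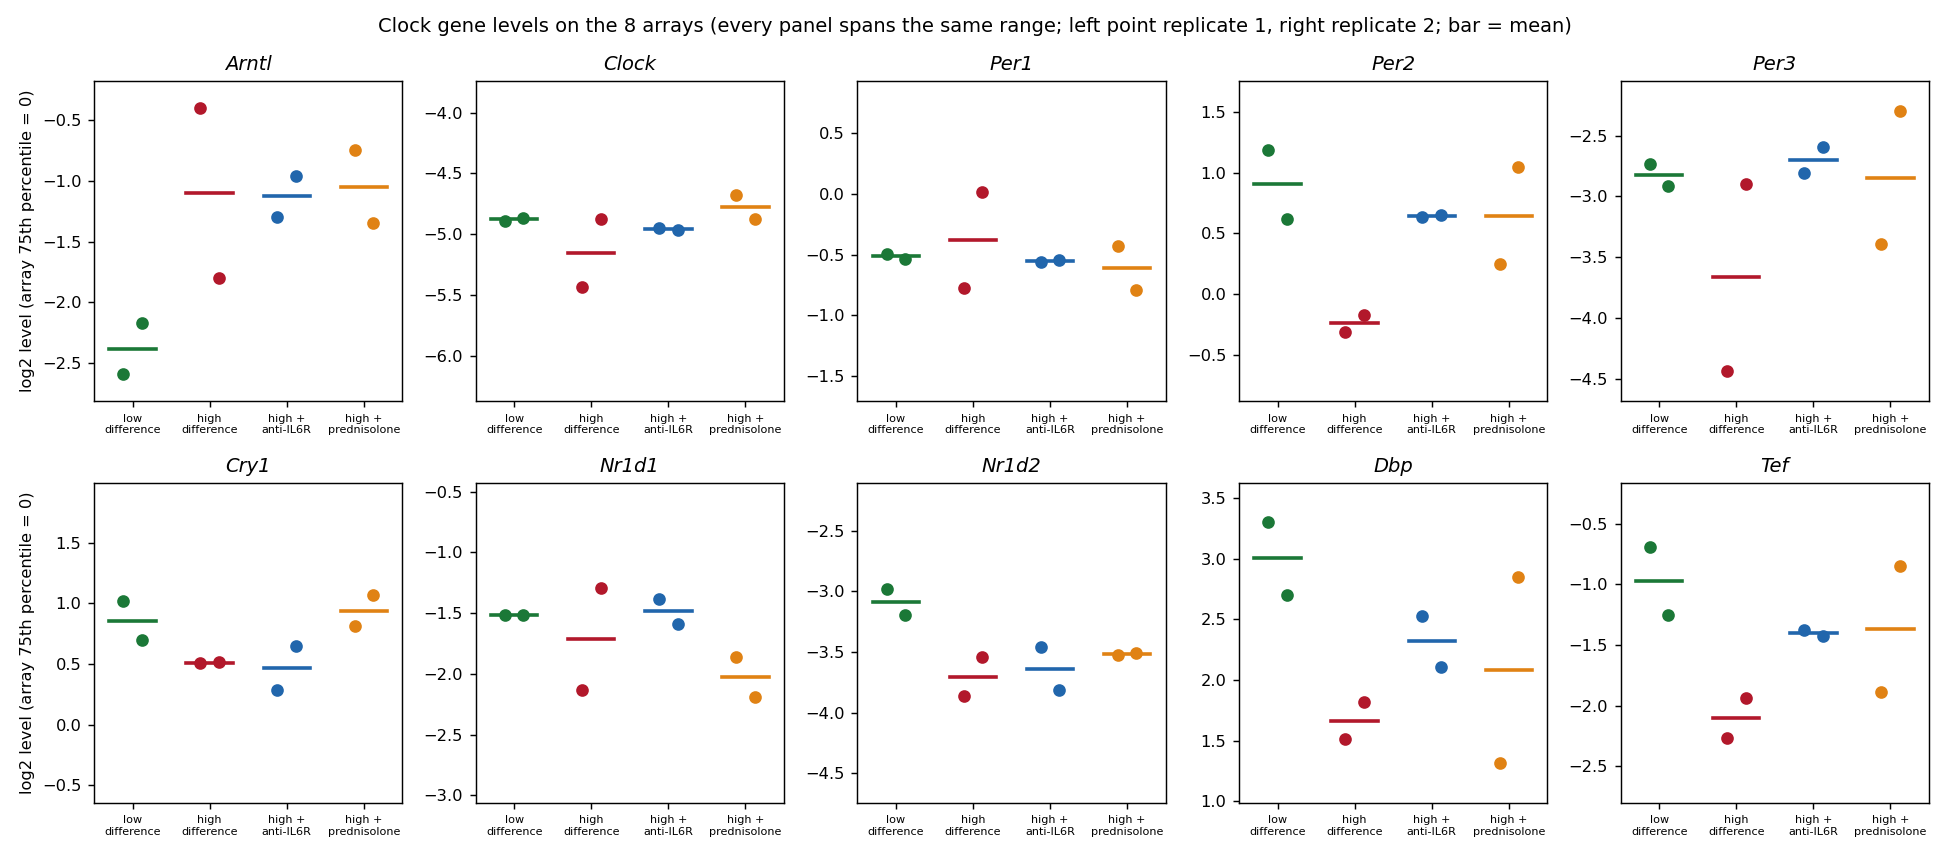
Log2 level (vertical axis, array 75th percentile at 0) of the 10 clock genes on each of the 8 arrays, grouped along the horizontal axis, with points for arrays and bars for group means. Arntl is lowest in the low-difference group (-2.59 and -2.17) and Per2 lowest in the high-difference group (-0.31 and -0.17), while Clock and Per1 differ little between group means.

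The first comparison asks what the donor's weight relative to the recipient goes with in untreated grafts. In high-difference grafts Per2, Dbp, Tef and Nr1d2, targets of the CLOCK and BMAL1 pair, lay below their low-difference levels, and Arntl lay above its own. The other targets among the members were less clear. Per3 (-0.84 ± 0.56), Cry1 (-0.35 ± 0.22) and Nr1d1 (-0.20 ± 0.30) were lower and Per1 (0.14 ± 0.29) was higher, all with 95% intervals that included 0. No member passed the test after adjustment: limma with Benjamini-Hochberg adjustment over all 24462 genes, at a threshold of 0.05, called 0 of 10 members and 0% of all genes. Before adjustment 5 of 10 members had p under 0.05, against 14.7% of all genes: 1 was higher, as were 8.24% of all genes, and 4 were lower, as were 6.43%. The arrays of both groups did not overlap for 6 of 10 members, against 56.5% of all genes, so that count stands near the background. The median absolute difference was 0.73 over the members and 0.33 over all genes.

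Among the activators, Arntl read -0.40 and -1.80 on the high-difference arrays and -2.59 and -2.17 on the low-difference arrays. It read -1.29 and -0.96 with anti-IL6R and -0.75 and -1.35 with prednisolone. Both low-difference arrays lay below all 6 others, a position that 3.49% of all genes shared, and the high-difference arrays lay far apart from each other. The Arntl difference, high minus low, was 1.28 ± 0.48 (standard error from limma; 95% interval 0.12 to 2.44), a 2.43-fold higher level, with adjusted p = 0.324 in limma. Without the first high-difference array it was 0.58, and without the second 1.98. Clock, the partner of Arntl, read -5.44 and -4.88 in high-difference and -4.89 and -4.86 in low-difference grafts. Its signal lay near background, and its difference of -0.28 ± 0.23 turned to 0.11 after another background correction.

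Of the period genes, which encode the proteins that block CLOCK and BMAL1, Per2 had the smallest p of all members. Per2 read -0.31 and -0.17 in high-difference grafts and 1.19 and 0.62 in low-difference grafts. Its arrays were 0.64 and 0.65 with anti-IL6R, and 0.25 and 1.04 with prednisolone. The high-difference arrays were thus the lowest 2 of the 8. The Per2 level was 2.21-fold higher in low-difference grafts, a difference (high minus low) of -1.15 ± 0.32 (95% interval -1.91 to -0.38) with adjusted p = 0.308 in limma.

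Per3 read -4.44 and -2.90 in high-difference grafts and -2.73 and -2.92 in low-difference grafts. The first high-difference array alone stood low, the groups overlapped, and the difference was -0.84 ± 0.56 (-1.61 without the second high-difference array, -0.07 without the first, and -0.29 after another background correction). The second Per3 probe was above background on neither high-difference array and on both low-difference arrays, with a measured difference of -1.01 ± 0.47, so its low reading in high-difference grafts is only a bound. Per1, the period gene known to answer glucocorticoids at once, read -0.77 and 0.02 against -0.49 and -0.54, a difference of 0.14 ± 0.29 whose 2 high-difference arrays lay on either side of both low-difference arrays.

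Cry1, a cryptochrome that acts with the PER proteins, read 0.51 on both high-difference arrays and 1.02 and 0.70 on the low-difference arrays. The groups did not overlap, but the difference of -0.35 ± 0.22 did not pass in limma. Of the REV-ERB genes, repressors of Arntl, Nr1d2 read -3.86 and -3.54 in high-difference grafts and -2.98 and -3.19 in low-difference grafts. Both low-difference arrays lay above all 6 others, as they did for 3.16% of all genes. The Nr1d2 difference was -0.61 ± 0.22 (95% interval -1.13 to -0.09; adjusted p = 0.317 in limma), and it was -0.20 after another background correction. Nr1d1 read -2.14 and -1.29 against -1.51 and -1.51, so the groups overlapped and the difference was -0.20 ± 0.30.

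Arntl and Nr1d2 were the 2 of 10 members whose low-difference arrays stood apart from all 6 others in either direction, against 6.65% of all genes. Dbp, the PAR bZIP factor with the most pronounced daily swing in many tissues, read 1.51 and 1.82 in high-difference grafts and 3.30 and 2.70 in low-difference grafts. With anti-IL6R it read 2.53 and 2.10, and with prednisolone 1.31 and 2.85. The untreated groups did not overlap, with Dbp 2.53-fold higher in low-difference grafts: the difference was -1.34 ± 0.51 (95% interval -2.57 to -0.11; adjusted p = 0.325 in limma).

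Tef, its relative, read -2.27 and -1.94 in high-difference grafts and -0.69 and -1.25 in low-difference grafts. It read -1.38 and -1.43 with anti-IL6R, and -1.89 and -0.85 with prednisolone. As for Dbp, the first prednisolone array sat near the untreated high-difference arrays and the second near the low-difference arrays. The Tef difference was -1.13 ± 0.38 (95% interval -2.04 to -0.22; adjusted p = 0.312 in limma), a level 2.19-fold higher in low-difference grafts.

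Nephron markers also stood lower in high-difference than in low-difference grafts, as Dbp, Tef and Per2 did, with a partly shared order of arrays. The mean level of the 9 nephron markers, each centred on its own mean over the 8 arrays, was -0.31 and -1.21 for high-difference and 0.88 and 0.18 for low-difference grafts. It was 0.31 and 0.04 with anti-IL6R and -0.46 and 0.57 with prednisolone. The mean was thus lowest on the second high-difference array. Per2 and Tef were lowest on the first high-difference array and Dbp on the first prednisolone array. For the nephron mean, Dbp, Tef and Per2 alike, the first low-difference array was highest and the second prednisolone array next. Both high-difference arrays and the first prednisolone array ranked lowest for each of them, in differing order. All 9 markers were lower in high-difference than in low-difference grafts, with a median difference of -0.91, against 0.07 over all genes. The log2 of their summed level was 8.39 to 9.07 in high-difference, 9.37 to 9.94 in low-difference, 9.02 to 9.47 in anti-IL6R and 8.48 to 9.56 in prednisolone grafts. Their part in the clock gene differences was not tested. In whole tissue such as this, fewer cells of a type and less RNA per cell cannot be told apart.

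Leukocyte markers were read in the same groups. Cd3e (T cells) and Csf3r (neutrophils) entered the test only through the anti-IL6R group, the sole group with them well above background on both arrays. The log2 of the summed level of 8 T and NK cell markers was -0.71 and -0.87 for high-difference and 0.76 and 0.71 for low-difference grafts. It was 1.22 and 0.81 with anti-IL6R, and 0.93 and -0.44 with prednisolone. For the 7 of 8 monocyte and macrophage markers tested it was 3.57 and 3.15, 4.19 and 4.91, 5.13 and 4.63, and 5.86 and 3.80 in the same order of groups. The first prednisolone array, low in Dbp, Tef and nephron markers, was thus the highest in monocyte and macrophage markers. Of the monocyte and macrophage markers 6 of 7 were lower in high-difference than in low-difference grafts, with Cd14 higher by 0.39 ± 0.62. Of the 3 of 4 neutrophil markers tested, S100a8 differed by 0.33 ± 1.30 and S100a9 by 1.12 ± 1.07 (high minus low). Both 95% intervals included 0, and Csf3r was well above background on no untreated array, so no direction is read from them. The log2 of the summed level of these 3 was -1.22 and -2.19 in high-difference and -2.78 and -2.35 in low-difference grafts. It was -0.65 and -1.55 in anti-IL6R and 1.01 and -2.71 in prednisolone grafts. Their part in the clock gene differences was not tested.

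**Figure D2:**
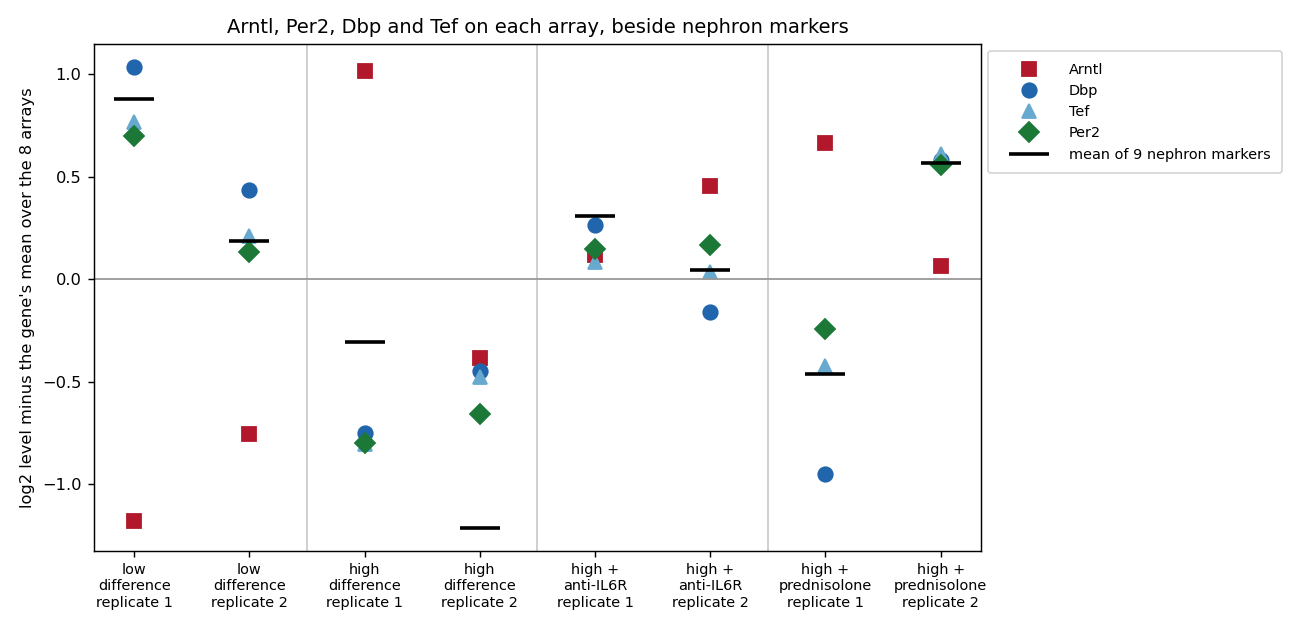
Log2 level minus the gene's mean over the 8 arrays (vertical axis) for Arntl, Dbp, Tef and Per2 on each array (horizontal axis), with black bars for the mean of 9 nephron markers. Dbp, Tef and Per2 lie close together on most arrays. The nephron bar lies above them on the first high-difference array and below them on the second. Arntl lies on the other side of 0 from them on both low-difference arrays, the first high-difference array and the first prednisolone array.

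The members' patterns over the arrays were compared by the root mean square (RMS) distance between centred levels, where 0 is an identical pattern. Per2 and Tef were the closest members, at 0.11, and Dbp and Tef lay 0.24 apart. These values come from the same 8 arrays and share their scaling and tissue make-up, so they are a description only. As Arntl and Dbp are known to run in opposite phase, the centred Arntl level minus the centred Dbp level was also taken on each array. It was 1.77 and 0.06 in high-difference grafts and -2.21 and -1.19 in low-difference grafts. With anti-IL6R it was -0.15 and 0.62, and with prednisolone 1.62 and -0.52. Only the low-difference group had both arrays clearly below 0, and the high-difference and prednisolone groups each spanned a wide range. Arntl and Dbp had the largest differences between the untreated groups of all members, so the gap follows in part from that choice. Centred Arntl minus centred Nr1d1 was 1.47 and -0.78 in high-difference grafts and -1.35 and -0.93 in low-difference grafts. With anti-IL6R it was -0.18 and 0.36, and with prednisolone 0.84 and 0.57. Its second high-difference array thus lay near the low-difference ones.

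Other genes were ranked by the same distance to the 5 members whose SD was over 0.50. The nearest named genes were Csdc2 (0.13), Acadsb (0.16) and C11h21orf140 (0.16) for Dbp, the last of them well above background on only 3 of 8 arrays, so that its place is uncertain. For Tef they were Car11 (0.12), D2hgdh (0.13) and Kit (0.13), and for Per2 Ccdc171 (0.12), Susd1 (0.13) and Pex7 (0.14). Arntl had no gene as near, with Arg1 at 0.30, Lonrf3 at 0.35 and Ccdc68 at 0.36. The mirror image of its pattern was nearest in Adgrg7 (0.25, above background on 5 arrays) and Glul (0.31). Mirror images were nearer for Per2 (Btn2a2, 0.14), Tef (Slc31a2, 0.15) and Dbp (Nipsnap3b, 0.18), and farther for Per3 (Ltbp2, 0.34). For Per3 the nearest were Septin5 (0.19), Vpreb3 (0.22) and Gpd1l1 (0.25). Each distance is over 8 arrays, and the tested genes with a symbol numbered 11773, so near matches are a description only.

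The second comparison asks how clock genes stood in high-difference grafts whose recipients got the antibody to the interleukin-6 receptor. Per2 lay higher with anti-IL6R than without, and Arntl lay at nearly the same mean level. No member passed (0 of 10, against 0% of all genes). Before adjustment 1 of 10 members had p under 0.05, against 17.7% of all genes, and the arrays did not overlap for 4 of 10, against 59.8%. With another background correction 5 of 10 did not overlap, against 63.5% of all genes. Neither count stood above the background. The median absolute difference was 0.22 over the members and 0.35 over all genes.

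The Per2 difference, anti-IL6R minus untreated high difference, was 0.89 ± 0.32 (95% interval 0.12 to 1.66; 1.85-fold; adjusted p = 0.249 in limma), and both treated arrays lay above both untreated ones. Per3 differed by 0.97 ± 0.56, Tef by 0.70 ± 0.38 and Dbp by 0.65 ± 0.51, in each case with both anti-IL6R arrays above both untreated ones. The intervals of these 3 genes included 0. The Per3 difference was 0.20 without the first untreated array, 1.74 without the second and 0.35 after another background correction. Arntl differed by -0.03 ± 0.48, with a 95% interval from -1.19 to 1.13 that leaves room for more than a doubling or a halving. Nr1d1 differed by 0.23, Clock by 0.20, Nr1d2 by 0.07, Cry1 by -0.05 and Per1 by -0.18, and the groups overlapped for each of these 5.

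The third comparison asks the same of prednisolone. Per2 was again the member with the smallest p, and the prednisolone arrays differed from each other more than the group means did for Dbp and Tef. No member passed (0 of 10, against 0% of all genes). Before adjustment 1 of 10 had p under 0.05, against 11.8% of all genes, and the arrays did not overlap for 5 of 10, against 38.9%. That count was 2 with another background correction, against 33.2% of all genes, and 3 under other scalings, against 37.7% to 38.3%. The median absolute difference was 0.40 over the members and 0.30 over all genes.

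Per2 differed by 0.89 ± 0.32 (95% interval 0.12 to 1.66; 1.85-fold; adjusted p = 0.388 in limma), from 0.49 without the second prednisolone array to 1.28 without the first. Tef differed by 0.73 ± 0.38, from 0.22 without the second prednisolone array to 1.25 without the first, and Dbp by 0.42 ± 0.51. For Dbp the prednisolone arrays stood on either side of both untreated arrays, at 1.31 and 2.85, and without the second of them its difference was -0.35. Cry1 differed by 0.43 ± 0.22, with both prednisolone arrays (0.81 and 1.07) above both untreated ones (0.51 and 0.51), and by 0.21 after another background correction. Per3 differed by 0.82 ± 0.56, from 0.05 without the first untreated array to 1.59 without the second, and by 0.37 after another background correction. The remaining differences were 0.38 ± 0.23 for Clock, 0.19 for Nr1d2, 0.05 for Arntl, -0.23 for Per1 and -0.31 for Nr1d1. Per1, which carries known glucocorticoid response elements, read -0.42 and -0.79 with prednisolone, against -0.77 and 0.02 without, and the groups overlapped. The anti-IL6R and prednisolone comparisons share the untreated arrays, so their common Per2 value is not 2 independent observations.

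The 8 glucocorticoid genes followed beside the clock, the receptor gene Nr3c1 among them, were all tested. In the prednisolone comparison none passed. Of the 8, 6 lay below 0, against 57.6% of all genes, with a median difference of -0.28, against -0.08 over all genes. Before adjustment 1 of 8 had p under 0.05, against 11.8% of all genes. That gene was Errfi1, a feedback inhibitor of growth factor receptors, at -0.76 ± 0.31 (adjusted p = 0.422 in limma; -0.41 without the second untreated array). Fkbp5, a chaperone partner of the glucocorticoid receptor, read 3.91 and 3.97 with prednisolone against 3.37 and 3.82 without. Its groups did not overlap, and the difference was 0.35 ± 0.21 (0.12 without the first untreated array).

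Between the treatments, both on the same slide, the members lay close. None passed (0 of 10, against 0%), 0 of 10 had p under 0.05 before adjustment, against 3.40% of all genes, and the arrays did not overlap for 3 of 10, against 26.2%. Cry1 was lower with anti-IL6R, at 0.29 and 0.64 against 0.81 and 1.07, a difference of -0.47 ± 0.22 (95% interval -1.0 to 0.06). Nr1d1 was higher with anti-IL6R, at -1.38 and -1.59 against -1.86 and -2.19, a difference of 0.54 ± 0.30 (95% interval -0.19 to 1.28). Clock was the remaining member without overlap, at -0.18. Per2 had the same mean to within 0.01, and its 95% interval ran from -0.77 to 0.77.

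**Figure D3:**
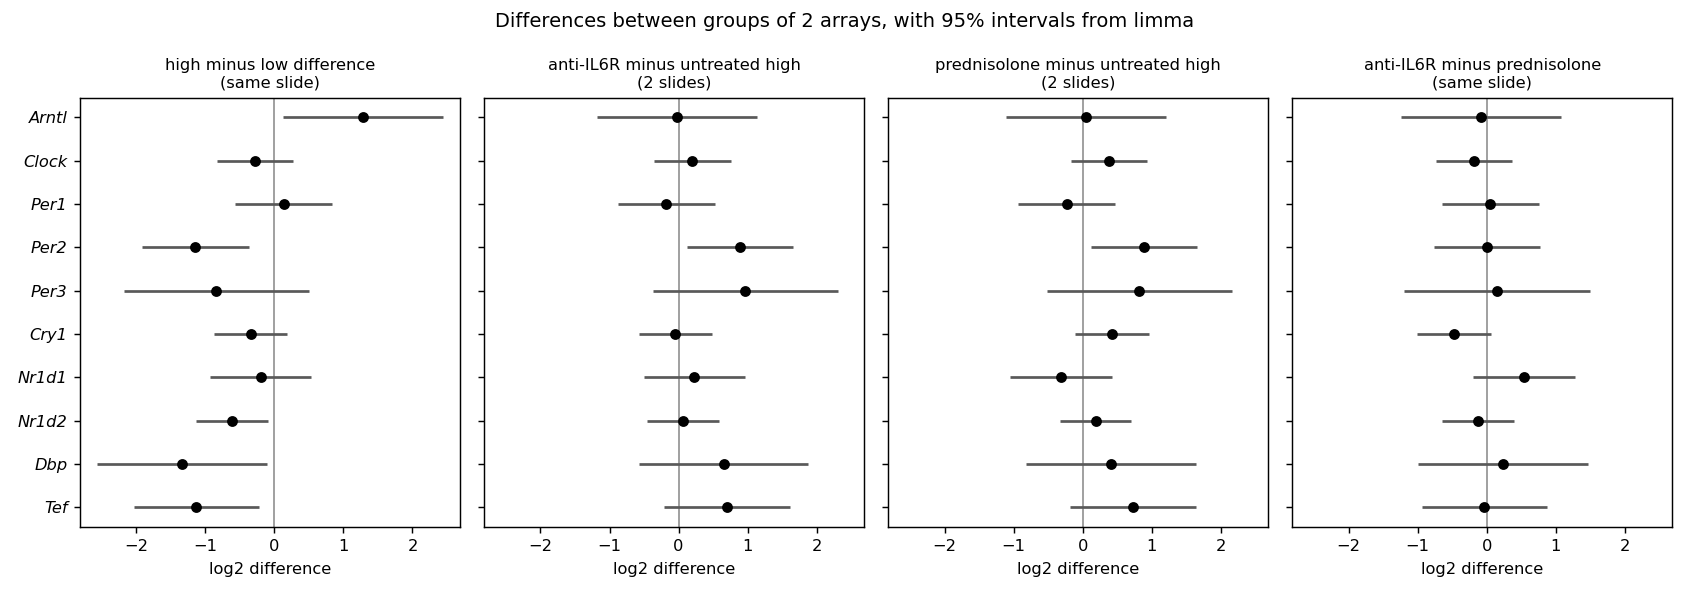
Log2 difference (horizontal axis) of the 10 clock genes (vertical axis) in 4 comparisons, one per panel, with limma's 95% interval as a bar. In the first panel the intervals of Arntl, Per2, Nr1d2, Dbp and Tef lie clear of 0, in both panels of treated against untreated grafts only that of Per2 does, and in the last none does.

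The wider clock machinery was read from a list of 23 further genes, of which 20 were on the array and 18 were tested. Npas2, a stand-in for Clock, entered the test only through the anti-IL6R group, the sole group with it well above background, and is left out of the counts. In high-difference against low-difference grafts 0 of the remaining 17 passed and 6 of 17 lay below 0, against 44.0% of all genes. Before adjustment 1 of 17 was higher with p under 0.05, against 8.24% of all genes, and 1 was lower, against 6.43%, so these counts are near the background. The higher one was Nfil3 (also called E4BP4), the repressor that competes with Dbp and Tef for D-boxes. It read -0.39 and 0.17 in high-difference and -1.69 and -1.45 in low-difference grafts, -1.15 and -1.45 with anti-IL6R, and -0.35 and -1.79 with prednisolone. The high-difference arrays were thus well above the low-difference ones, and the prednisolone arrays spanned the range. The Nfil3 difference was 1.46 ± 0.47 (95% interval 0.32 to 2.60; adjusted p = 0.311 in limma), opposite in sign to those of Dbp and Tef.

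The lower one was Bhlhe41 (DEC2), a repressor that binds E-boxes. It read 0.58 and 1.24 in high-difference and 1.90 and 1.87 in low-difference grafts, and 0.97 to 1.33 in treated grafts. As for Nr1d2, both low-difference arrays lay above all 6 others. Its difference was -0.98 ± 0.26 (adjusted p = 0.308 in limma; -0.65 without the first high-difference array). Its close relative Bhlhe40 (DEC1) differed by 0.13 ± 0.31, and by -0.25 without the second high-difference array. Several of the others rested on 1 array. Cry2, the other cryptochrome, differed by -0.61 ± 0.45, and by -0.015 without the first high-difference array. Timeless, a replication fork protein tied to the clock, differed by 1.13 ± 0.52, and by 0.36 without the first low-difference array. Hlf, the remaining PAR bZIP factor, differed by -0.11 ± 0.87 and was well above background in 2 of the 4 groups, running from -1.31 to 1.1 with a high-difference array left out. Rora, an activator of Arntl, differed by 0.22 ± 0.29 (0.014 without the second low-difference array). The kinase genes Csnk1d, Csnk1e and Gsk3b, whose products mark PER and other clock proteins for turnover, differed by 0.34, 0.30 and 0.35, and by 0.14, 0.0059 and 0.17 without the second high-difference array.

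With anti-IL6R, 0 of 17 passed and 1 of 17 had p under 0.05 before adjustment, against 17.7% of all genes. Nfil3 lay lower, by -1.19 ± 0.47 (95% interval -2.33 to -0.05; adjusted p = 0.273 in limma), both treated arrays standing below both untreated ones. With prednisolone and between the treatments, 0 of 17 passed and 0 had p under 0.05 before adjustment, against 11.8% and 3.40% of all genes. Nfil3 was at -0.96 ± 0.47 for prednisolone against no treatment, from -1.68 without the first prednisolone array to -0.24 without the second.

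**Figure D4:**
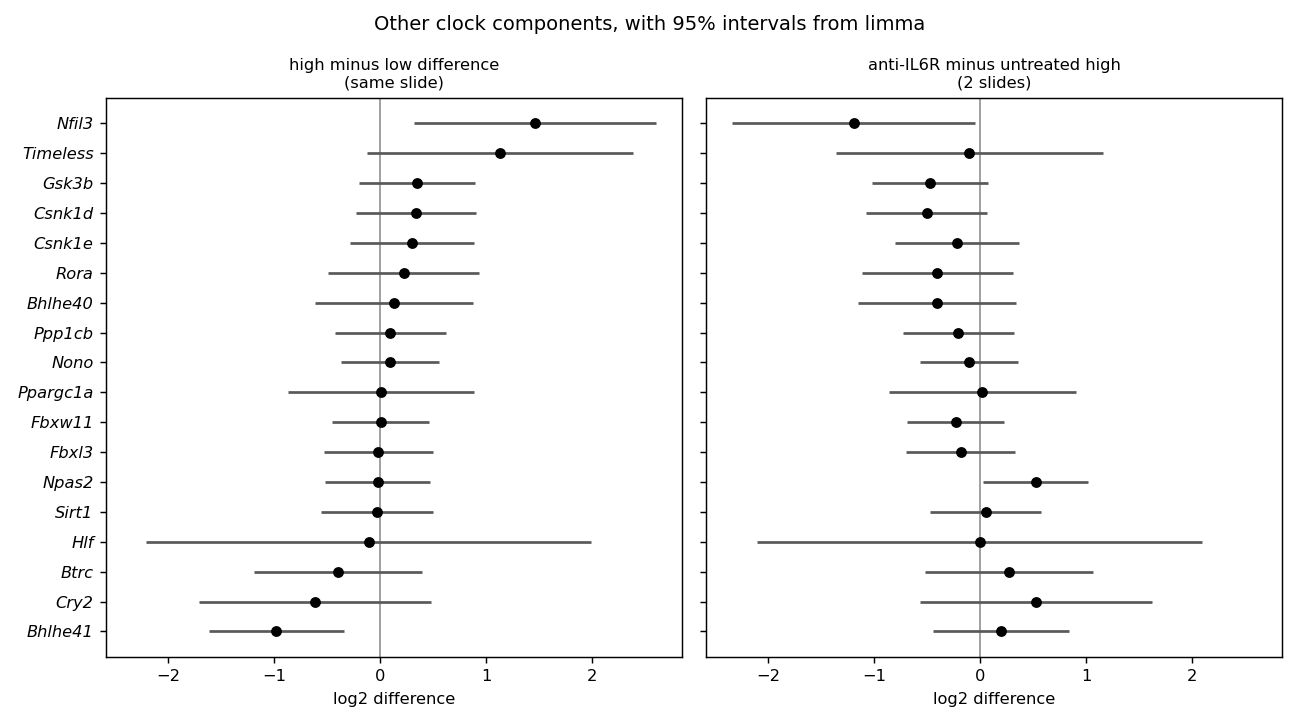
Log2 difference (horizontal axis) of 18 other clock components (vertical axis) between untreated high- and low-difference grafts (left) and between anti-IL6R and untreated high-difference grafts (right), with limma's 95% intervals. Nfil3 lies right of 0 at 1.46 on the left and left of 0 at -1.19 on the right, and most other genes lie within 0.50 of 0. Npas2 was well above background in the anti-IL6R group alone.

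Genes known as outputs of the kidney clock were taken from a list of 16, of which 15 were tested. In high-difference against low-difference grafts 0 passed, 12 of 15 lay below 0, against 44.0% of all genes, and the median difference was -0.20, against 0.07 over all genes. Before adjustment 2 of 15 were lower with p under 0.05, against 6.43% of all genes, and both encode transporters of tubule cells: Slc9a3 (the proximal sodium-hydrogen exchanger NHE3) at -2.04 ± 0.62 and Aqp2 (the water channel of the collecting duct) at -2.53 ± 0.84. Without the second high-difference array they were -1.27 and -1.51. Aqp2 is also one of the 9 nephron markers, all of which lay below 0 here, with a median difference of -0.91. How far the loss of tubule signal enters the output counts was not tested. Usp2, a ubiquitin protease gene driven directly by the clock in many tissues, read -0.50 and -0.35 in high-difference and 1.72 and 0.47 in low-difference grafts. It read 0.65 and 0.53 with anti-IL6R, and -1.26 and 1.28 with prednisolone. The untreated groups did not overlap, and the first prednisolone array was the lowest of the 8 while the second was near the top. The Usp2 difference was -1.52 ± 0.81, and -0.90 without the first low-difference array. Alas1, the first enzyme of haem synthesis, differed by -0.90 ± 0.56 (-0.34 without the first low-difference array), and Avpr2, the vasopressin receptor, by -1.38 ± 0.70.

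Scnn1a, a subunit of the epithelial sodium channel, differed by -0.82 ± 0.55. Cldn8, a tight junction gene of the distal nephron, differed by -0.60 ± 0.30. Neither overlapped between the untreated groups, a trait of 10 of the 15 output genes, against 56.5% of all genes. On the other side of 0 lay Sgk1, a kinase that raises sodium uptake, at 0.42 ± 0.32 and Edn1, the endothelin gene, at 0.34 ± 0.24. Closer to 0 were Wee1, a cell cycle kinase, at -0.20 ± 0.24, Nampt, an enzyme of NAD synthesis, at 0.02 ± 0.25 and Por, the electron donor of cytochrome P450 enzymes, at -0.07 ± 0.20. Without the first low-difference array Scnn1a was -0.40 and Nampt -0.23, and Por stood at 0.09. Without the second high-difference array Sgk1 was 0.13 and Edn1 0.10.

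With anti-IL6R 1 of the 15 output genes had p under 0.05 before adjustment, against 17.7% of all genes. It was Slc9a3, at 2.16 ± 0.62 (adjusted p = 0.221 in limma; 1.40 without the second untreated array). With prednisolone it was 1 of 15, against 11.8% of all genes, namely Aqp2 at 2.18 ± 0.84 (adjusted p = 0.403 in limma; 1.16 without the second untreated array).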

How the data were processed

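RNA of 8 grafts (1 µg each) was labelled with Cy3 and hybridised to 1-colour Agilent rat arrays, per the labels' protocols. The deposited files hold spot intensities from Agilent Feature Extraction 9.5.1.1, with the processed signal background-subtracted and detrended within each array, per the file headers. The authors' deposited value table holds the same intensities times 1 factor per array. No column of per-sample values was left unmapped (0 columns).

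Control and outlier-flagged spots were left out, and log2 of the processed signal minus each array's 75th percentile was taken. The array has 41012 probes, of which 765 were flagged at every spot on some array, 11561 were not well above background on both arrays of any group, and 28686 were tested. The brightest probe stood for each of 24462 genes. Names were updated through RefSeq's GRCr8 gene table (10735 probes by accession, 5577 by symbol, 3730 by synonym, 20970 kept). limma 3.58.1 in R 4.3.3 fitted all 8 arrays at once (4 residual and 2.37 prior degrees of freedom) with Benjamini-Hochberg adjustment, and was tested on simulated data. With 2 arrays against 2, the smallest p of an exact two-sided permutation test is 0.333, and no such test was run.

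The members, lists and tests were chosen with earlier results of these data known. All members are named. From the wider clock list the rule named Cry2, Npas2, Rora, Nfil3, Bhlhe40, Bhlhe41, Hlf and up to 4 more genes with the smallest p in a comparison, and from the other lists any member could be named. Nothing ties the arrays of a group to shared or separate litters or days, so p-values measure only the spread between these samples.

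Alternatives were normexp background correction with an offset of 50, quantile and median scaling, the authors' table, no filter on dim probes, another choice of probe, a replicate block and leaving out each array. Counts of members without overlap, and the list genes' differences, under these were added after seeing the data.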

Additional observations from a re-analysis of the deposited data

How the results depend on the processing

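Over 716 recomputed differences of the 10 members, 680 kept their sign and 36 turned it, and in all of them limma's adjusted p stayed above 0.05, so the count of members called was 0 under every alternative run. High against low difference, the signs of Per2, Per3, Cry1, Arntl, Nr1d2, Dbp and Tef held in every alternative run. After normexp background correction Clock turned to 0.11 (high minus low), -0.42 (anti-IL6R minus high) and -0.12 (prednisolone minus high), Nr1d2 to -0.25 (anti-IL6R minus high), and Per2 to -0.039 and Per3 to -0.021 (anti-IL6R minus prednisolone). In that last comparison Per2 was also -0.0029 under quantile scaling and -0.073 under median scaling and in the authors' table, where Per1 was -0.018 in both. Nr1d2 in the authors' table was -3e-04 (anti-IL6R minus high). The cause was not tested. The median difference of all genes moved from 0.07 to 0.14 (high minus low), from -0.09 to -0.22 (anti-IL6R minus high) and from -0.01 to -0.10 (anti-IL6R minus prednisolone) with normexp. The count of all genes called, 0 as processed in the report, was 3, 7, 4 and 2 under quantile scaling (high minus low, anti-IL6R minus high, prednisolone minus high, anti-IL6R minus prednisolone) and 1 each in the first and second of these comparisons under median scaling and in the authors' table. With 1 array left out in turn it ran from 0 to 39, 0 to 169, 0 to 224 and 0 to 130, the highest counts coming without the first high-difference array (39), either prednisolone array (169) and the first prednisolone array (224 and 130). A lone array was then assumed to vary like the other groups. The count of members without overlap in prednisolone minus high, 5 in the report (38.9% of all genes), was 2 with normexp (33.2%) and 3 under quantile scaling (37.7%), median scaling and in the authors' table (38.3% each). It ran from 6 to 10, 4 to 9, 5 to 9 and 3 to 9 in the 4 comparisons with 1 array left out, where fewer arrays overlap less by construction: the share of all genes then ran from 56.5 to 82.8%, 59.8 to 85.1%, 38.9 to 79.3% and 26.2 to 78.5%.

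Leaving out 1 array in turn also turned the following differences, given as ranges. High minus low, Per1 ran from -0.26 to 0.53 and Nr1d1 from -0.62 to 0.22. Anti-IL6R minus high, Per1 ran from -0.57 to 0.22, Cry1 from -0.23 to 0.13, Arntl from -0.73 to 0.67, Clock from -0.078 to 0.48, Nr1d1 from -0.19 to 0.65 and Nr1d2 from -0.11 to 0.24. Prednisolone minus high, Per1 ran from -0.63 to 0.17, Arntl from -0.65 to 0.75, Nr1d1 from -0.73 to 0.11 and Dbp from -0.35 to 1.18. Anti-IL6R minus prednisolone, Per1 ran from -0.13 to 0.24, Per2 from -0.40 to 0.40, Per3 from -0.40 to 0.69, Arntl from -0.38 to 0.22, Nr1d2 from -0.30 to 0.052, Dbp from -0.53 to 1.0 and Tef from -0.55 to 0.49. With the replicate number as a block, 0 members and 0 genes were called in each comparison, as without it. Same-numbered arrays of different groups had correlations of their deviations between -0.35 and 0.37, with no common sign. These values rest on 1 deviation per group, so they cannot exclude a pairing of the arrays.

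With 2 arrays per group, differences under about 1 on the log2 scale had intervals that often included 0. Clock, Npas2 and the second Per3 probe lay near background, but with normexp the high minus low differences of Nr1d2 and of the main Per3 probe, above background on all 8 arrays, also moved, to -0.20 and -0.29. The collection hour was not given, and slide and treatment cannot be told apart.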
